A study of Mus musculus with 21 samples.

Results

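A set of 9 genes for enzymes, an inhibitor, secreted proteins and an anchoring protein was followed across mouse skin with sclerodermatous chronic graft-versus-host disease. They are Aadacl4, AAdacl4fm3, Akr1cl, Akr1d1, Cyp2g1, Serpina3j, Cpn2, Sphkap and Hamp2, 9 of 64050 gene symbols in the deposited count table. They were picked for some of the strongest differences in disease or under treatment outside the immune and keratin families, so the values of the 3 main comparisons chose them. For these genes the comparisons are therefore described, with a standard error (SE) and without a test. All 9 passed the filter on low counts that left 20462 genes.

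The recipients were BALB/c mice 8 weeks old, irradiated with 700 cGy and given bone marrow 6 hours later. Of the 5 groups, 4 received allogeneic marrow from B10.D2 donors. Within the allogeneic recipients, mCAN10 skin (4 libraries) came from mice given an antibody against IL1RAP, the co-receptor shared by the IL-1, IL-33 and IL-36 receptors. Allo skin (4 libraries) came from allogeneic mice given the isotype antibody mIgG2a LALA-PG. Syn skin (4 libraries) came from syngeneic mice, with BALB/c marrow and the same isotype antibody. Nin skin (5 libraries) came from allogeneic mice given nintedanib, an inhibitor of PDGF, FGF and VEGF receptor kinases. Allo_H skin (4 libraries) came from allogeneic mice given ddH2O. Dosing started on day 21, and the skin is from week 7. Antibody doses were 20 mg/kg at first and 10 mg/kg afterwards, by intraperitoneal injection. Nintedanib was dosed daily at 50 mg/kg by mouth in the treatment protocol and by intraperitoneal injection in the design text of the series, so its route is uncertain. The model rests on 1 donor and recipient strain pair, and donor strain parts Allo from Syn as well as disease does.

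Values are given as CPM, the read count of a gene relative to the scaled total of its library. They are not per gene length, so levels are compared between groups and not between genes. The mCAN10, Allo and Syn libraries were counted in 1 run and the Nin and Allo_H libraries in another, with partly different gene names, so each treatment is set against the control of its own run. The 21 libraries held 17130264 to 32899212 counts. All 12 keratinocyte markers examined had counts in every library. Summed markers of growing hair follicles were 63367 CPM in Nin library 1 and 21461 CPM in Nin library 3, against 13 to 576 CPM in the other 19 libraries. The summed level of 4 Y-linked genes was 0 in every Allo and Allo_H library and 2.73 to 6.61 CPM in Syn libraries, and it ran from 0 to 15.2 CPM in mCAN10 libraries and from 0 to 27.9 CPM in Nin libraries. Xist lay between 161 and 463 CPM in all 21 libraries. The part of these differences in the results was not tested. Summed skeletal muscle markers held 104 CPM in Allo library 1, against 5196 to 75965 CPM in the other 20 libraries, and their part was not tested either. Each library is a bulk piece of skin 3 mm in diameter, so fewer cells of a type and less RNA per cell cannot be told apart.

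Aadacl4 and AAdacl4fm3 belong to the arylacetamide deacetylase family, membrane-bound esterases of the endoplasmic reticulum that cut ester and amide bonds of lipids and drugs. Akr1cl and Akr1d1 are aldo-keto reductases, which reduce carbonyl groups with NADPH. Akr1d1 is the steroid 5-beta-reductase of hepatic bile acid synthesis and steroid hormone clearance. Cyp2g1 is a cytochrome P450 best known from the olfactory mucosa of rodents. Serpina3j is one of the clade A3 serine protease inhibitors, a family that has expanded in the mouse. Cpn2 encodes the non-catalytic subunit of carboxypeptidase N, a plasma enzyme that removes basic residues from kinins and complement anaphylatoxins. Hamp2 is a second mouse hepcidin gene, next to Hamp. The product of Hamp closes the iron exporter ferroportin, and whether that of Hamp2 does so was not examined. Sphkap encodes an anchoring protein that binds protein kinase A and sphingosine kinase.

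Promoter sequence was found for 8 of the 9 genes, all but Cyp2g1. Shown are the 250 bases before the RefSeq start site (build GRCm38.p6) of the esterase pair that varied together, of Hamp2, which followed the same pattern in the first counting run, and of Akr1d1, which ran the other way. The windows are chr4:144613457-144613706 on the plus strand, chr4:144721493-144721742 on the minus strand, chr7:30924182-30924431 on the minus strand and chr6:37529923-37530172 on the plus strand. For AAdacl4fm3 the bases after the RefSeq start were not found in a transcript of the GENCODE M21 annotation, so its start site is less certain. Each is written 5′ to 3′ along the gene, with matches to the motifs below in capitals.
Aadacl4: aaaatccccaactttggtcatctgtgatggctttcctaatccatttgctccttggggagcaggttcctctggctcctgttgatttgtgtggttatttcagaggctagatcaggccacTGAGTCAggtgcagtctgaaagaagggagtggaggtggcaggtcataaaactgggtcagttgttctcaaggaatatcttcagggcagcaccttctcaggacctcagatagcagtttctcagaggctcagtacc
AAdacl4fm3: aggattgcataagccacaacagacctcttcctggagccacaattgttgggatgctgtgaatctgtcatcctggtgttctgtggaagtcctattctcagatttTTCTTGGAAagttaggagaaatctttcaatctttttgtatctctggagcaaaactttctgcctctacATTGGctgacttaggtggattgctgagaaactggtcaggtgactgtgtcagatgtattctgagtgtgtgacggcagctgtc
Hamp2: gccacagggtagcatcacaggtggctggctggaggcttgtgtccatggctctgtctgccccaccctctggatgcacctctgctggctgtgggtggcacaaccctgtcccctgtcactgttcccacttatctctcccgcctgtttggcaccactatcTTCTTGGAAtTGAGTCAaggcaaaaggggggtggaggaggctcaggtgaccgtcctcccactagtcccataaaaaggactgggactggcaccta
Akr1d1: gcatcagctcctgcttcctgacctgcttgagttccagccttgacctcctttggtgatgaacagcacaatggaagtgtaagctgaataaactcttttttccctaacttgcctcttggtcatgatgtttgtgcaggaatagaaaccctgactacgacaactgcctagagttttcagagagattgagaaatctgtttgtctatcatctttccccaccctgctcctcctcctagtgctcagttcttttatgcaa

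The motifs searched on both strands were the TATA box (TATAAA), the CCAAT box by its name, the AP-1 motif (TGANTCA) and the STAT motif (TTCNNNGAA). Of 32851 windows of the same length, 12.4% held the TATA box, 33.8% the CCAAT box, 6.75% the AP-1 motif and 7.02% the STAT motif. The Aadacl4 window held 1 AP-1 match, 133 bases before the start. The AAdacl4fm3 window held a STAT match 148 bases and a CCAAT match 81 bases before the start. The Hamp2 window held a STAT match 94 bases and an AP-1 match 84 bases before the start, neighbours with 1 base between them. No match lay in the Akr1d1 window, and the esterase pair shared no motif. No match in these windows overlapped another. The matches describe letters, and nothing is drawn from them about the factors.

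In mCAN10 skin against Allo skin, 7 of the 9 genes were higher without overlap of the libraries, 1 was lower and 1 overlapped. Over all genes tested, 12.2% were higher and 10.9% lower without overlap. By edgeR's adjusted p, 5 were called higher and 1 lower, where 5.58% of all genes were called higher and 5.19% lower (10.8% in either direction). In Allo against Syn skin, 1 was higher and 6 were lower without overlap, against 16.8% and 12.5% of all genes. Of the 9, 1 was called higher and 5 lower, with 13.8% of all genes called higher and 8.80% lower (22.6% in either direction). Both comparisons use the 4 Allo libraries, and both of these share libraries with mCAN10 against Syn. There 1 gene was higher and 1 lower without overlap, against 10.8% and 8.05% of all genes, and 0 of the 9 were called by edgeR, where 0.777% of all genes were called higher and 0.0342% lower (0.811% in either direction).

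In Nin against Allo_H skin, 7 were higher and 0 lower without overlap, where 4.75% and 3.20% of all genes were. The 7 were all called higher, against 5.56% of all genes called higher and 3.76% lower (9.31% in either direction). Each comparison was also fitted on its own counting run. The nintedanib fit then called 0.579% of genes and 4 of the 6 members that kept enough counts (Aadacl4, AAdacl4fm3, Cyp2g1 and Hamp2). The fit of the first run called 6 of 8 members in mCAN10 against Allo skin (18.8% of genes), 8 of 8 in Allo against Syn skin (33.6%) and 0 of 8 in mCAN10 against Syn skin (2.60%). Nothing is read from these counts, since the genes were chosen on them.

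**Figure D1:**
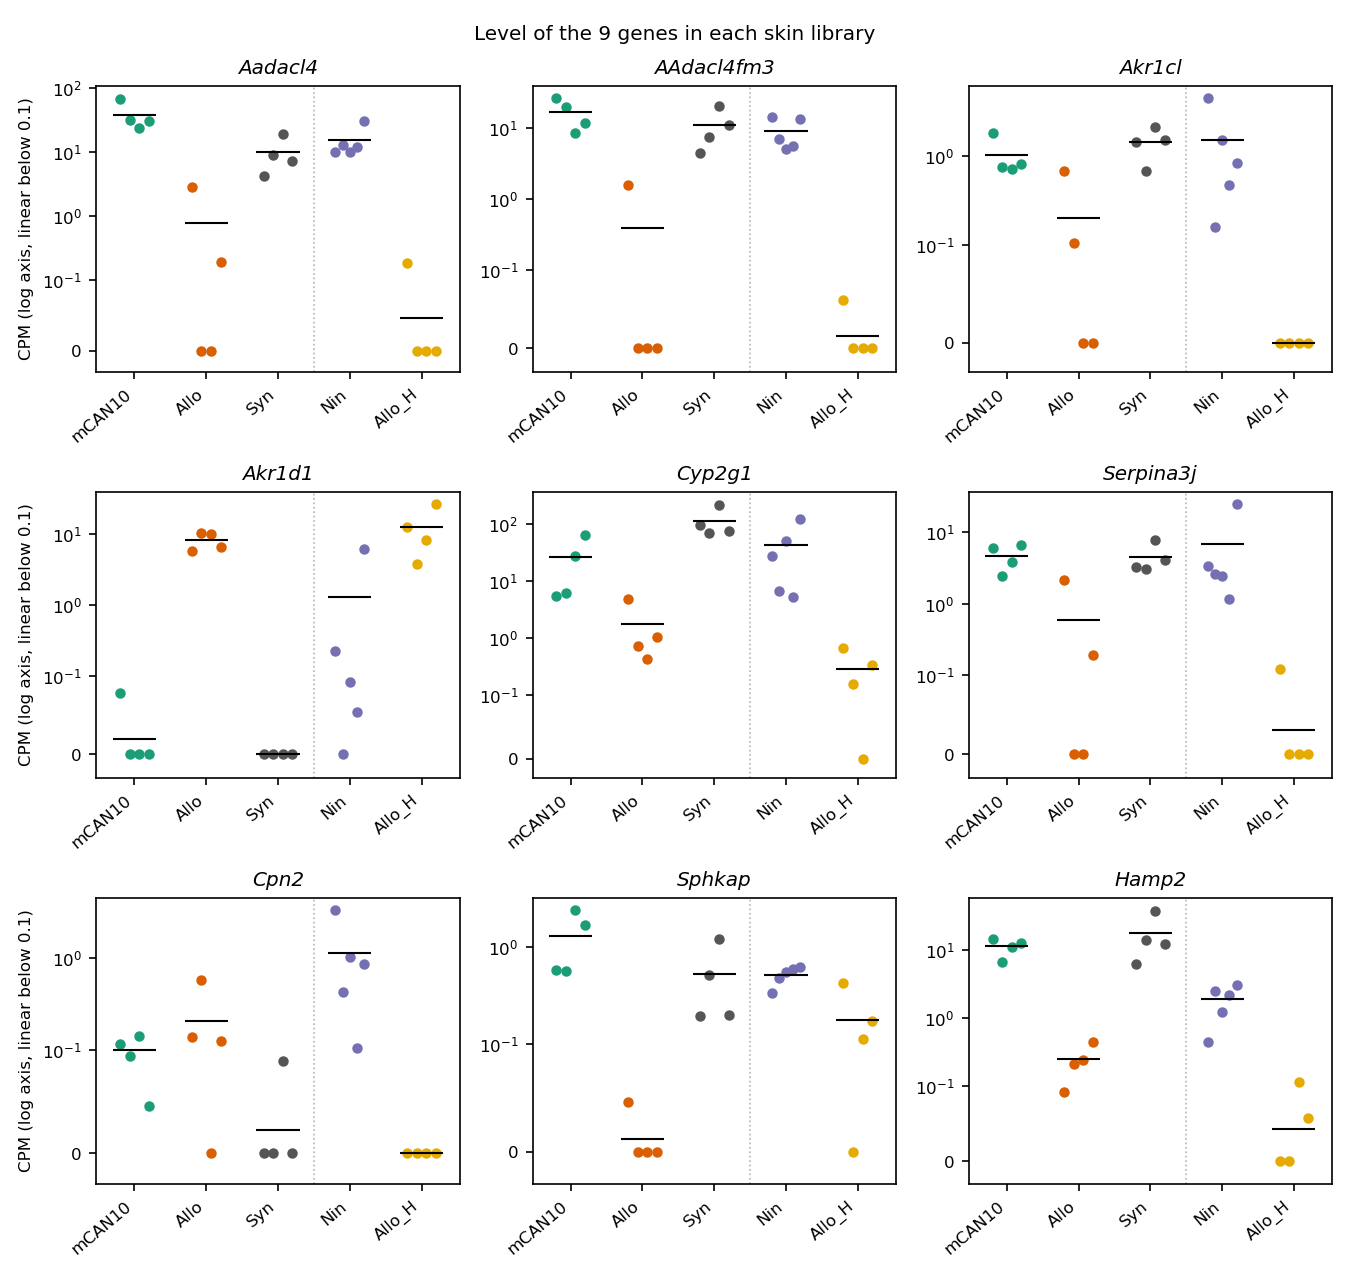
CPM of each of the 9 genes in each library, on an axis that is logarithmic above 0.1 CPM and linear below. Points are libraries, horizontal bars are group means, and the dotted line parts the 2 counting runs. Aadacl4 lay between 23.0 and 67.4 CPM in mCAN10 libraries and between 0 and 2.84 CPM in Allo libraries, while Akr1d1 was at 0 in all Syn libraries and reached 10.1 CPM in Allo libraries.

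**Figure D2:**
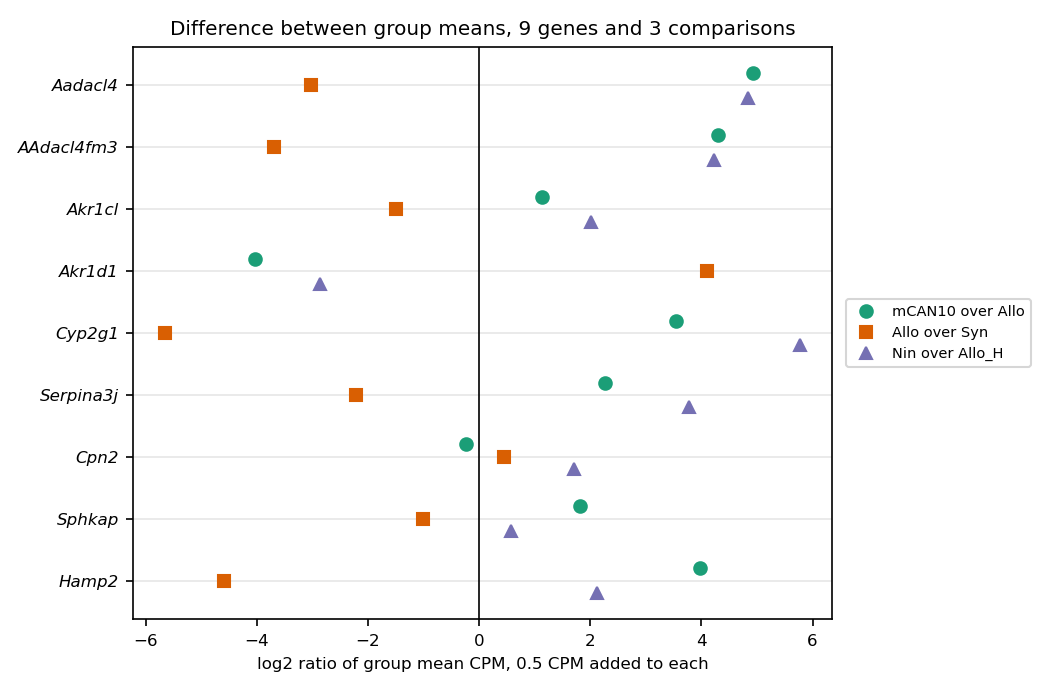
The log2 ratio of group mean CPM after adding 0.5 CPM to each mean, for mCAN10 over Allo (circles), Allo over Syn (squares) and Nin over Allo_H (triangles). Akr1d1 stands on the opposite side of 0 from 7 of the other genes in all 3 comparisons. Cpn2, at -0.24, 0.44 and 1.71 in the order given, stands on its side in the first 2 and not in the third.

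The esterase Aadacl4 was nearly absent from allogeneic control skin and abundant in both treated groups. It had 67.4, 31.2, 23.0 and 30.2 CPM in mCAN10 libraries, 2.84, 0, 0 and 0.188 CPM in Allo libraries, and 4.21, 8.75, 18.7 and 7.19 CPM in Syn libraries. Every mCAN10 library lay above every Syn library, and every Syn library lay above every Allo library. The log2 fold change was 5.58 ± 0.98 for mCAN10 over Allo, -3.62 ± 0.91 for Allo over Syn and 1.97 ± 0.80 for mCAN10 over Syn. Aadacl4 was the one gene of the 9 whose mCAN10 libraries all exceeded the Syn libraries, as 10.8% of all genes did. In the other counting run it had 9.97, 12.8, 10.0, 11.9 and 30.3 CPM in Nin libraries, against 0.183, 0, 0 and 0 CPM in Allo_H libraries. The Nin libraries were all higher. The 3 Allo_H counts leave the ratio at 346, with a counting interval of 118 to 1678.

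AAdacl4fm3, from the same gene cluster, followed the same order for Allo but not between mCAN10 and Syn. It had 26.5, 20.4, 8.6 and 11.9 CPM in mCAN10 libraries, 1.56, 0, 0 and 0 CPM in Allo libraries, and 4.53, 7.63, 21.0 and 11.2 CPM in Syn libraries. Allo libraries lay below both others, and the mCAN10 and Syn libraries overlapped. The log2 fold change was 5.34 ± 0.95 for mCAN10 over Allo, -4.73 ± 0.93 for Allo over Syn and 0.61 ± 0.75 for mCAN10 over Syn. It had 14.4, 7.0, 5.08, 5.65 and 13.6 CPM in Nin libraries, against 0.0611, 0, 0 and 0 CPM in Allo_H libraries. With 1 count over all Allo_H libraries, the ratio was 630 and its counting interval ran from 113 to 24920.

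Allo library 1 held most of the esterase counts of its group. Without it, Aadacl4 was 720-fold higher in mCAN10 than in Allo skin (counting interval 246 to 3491), against 46.2-fold with it (36.1 to 59.9), and 174-fold lower in Allo than in Syn skin (59.3 to 844), against 11.2-fold with it (8.67 to 14.6). AAdacl4fm3 had no counts in the other 3 Allo libraries, so without library 1 it was at least 329-fold higher in mCAN10 skin and at least 202-fold lower in Allo than in Syn skin, against 3 counts over the group. For both genes the Allo libraries lay below the other groups with and without that library. The counting intervals cover counting error only, and amplified reads are not independent molecules.

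The rest of the esterase family gives a view beyond the pair. The list held 11 further members, of which 9 had enough counts to be tested. In mCAN10 against Allo skin, 5 rose, 0 fell and 4 did not pass edgeR's test, with a median log2 fold change of 3.20 where the median over all genes was 0.00. In Allo against Syn skin, 3 fell, 1 rose and 5 did not pass, with a median of -1.78. Aadacl2fm1 rose by 2.41 ± 0.41 on the log2 scale in mCAN10 skin (adjusted p = 0.0015, edgeR) and fell by 2.22 ± 0.41 in Allo skin (adjusted p = 0.000934, edgeR). Aadacl2fm2 rose by 4.64 ± 1.07 in mCAN10 skin (adjusted p = 0.00917, edgeR) and fell by 3.40 ± 1.03 in Allo skin (adjusted p = 0.0226, edgeR). Its levels were 27.5, 20.9, 12 and 13.6 CPM in mCAN10 libraries, 2.84, 0, 0 and 0 CPM in Allo libraries, and 4.21, 6.09, 14.7 and 6.51 CPM in Syn libraries. Allo library 1 was again the only one of its group with counts. Aadacl2 was the gene that went the other way, with a log2 fold change of 1.13 ± 0.34 in Allo over Syn skin (adjusted p = 0.0228, edgeR). In mCAN10 over Allo skin it did not pass (adjusted p = 0.109, edgeR). With the first run's libraries alone it passed as lower there, at -0.90 ± 0.19 (adjusted p = 0.0068, edgeR). Aadacl2fm1, Aadacl2fm2, Aadacl4fm2 and Aadacl4fm5 passed as higher in that fit.

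Among the relatives of Aadacl4 on chromosome 4, Aadacl4fm5 rose above its syngeneic level under mCAN10 and Aadacl4fm2 had higher values without passing the test. Aadacl4fm5 had 3.7, 2.06, 0.669 and 2.34 CPM in mCAN10 libraries, 0.413, 0, 0.0967 and 0.313 CPM in Allo libraries, and 0.156, 0.0429, 0.313 and 0 CPM in Syn libraries. It rose by 3.38 ± 0.86 over Allo (adjusted p = 0.0153, edgeR) and by 4.09 ± 0.89 over Syn (adjusted p = 0.0335, edgeR). Its Allo and Syn libraries overlapped, with a log2 fold change of 0.71 ± 0.96. Aadacl4fm2 averaged 1.73 ± 0.763 CPM in mCAN10 libraries, 0.0344 ± 0.0688 CPM in Allo libraries and 0.149 ± 0.134 CPM in Syn libraries (SD, n = 4 each). Its 3 Allo counts give a ratio of 44.7 for mCAN10 over Allo, with a counting interval of 15 to 219 (adjusted p = 0.00296, edgeR). Over Syn it did not pass, at 3.54 ± 0.80 with an adjusted p of 0.0516 (edgeR), which was 0.0252 when only the 12 libraries of that run were fitted.

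In Nin against Allo_H skin, 6 of the 9 testable relatives rose and 0 fell, with a median of 1.78. Aadacl2fm2 had 7.85, 6.57, 7.76, 5.49 and 24.8 CPM in Nin libraries, against 0.305, 0, 0 and 0 CPM in Allo_H libraries. It rose by 7.08 ± 1.36 (adjusted p = 0.00477, edgeR). Aadacl4fm1 was at 0 in Allo_H skin and at least 24.6-fold higher in Nin skin. The spread behind these calls was estimated over all 21 libraries. With the 9 libraries of the run alone, 1 relative passed, Aadacl2fm2, with an adjusted p of 0.0272 (edgeR). Not every relative kept enough counts for that fit, and Aadacl4fm1 had no value in it.

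**Figure D3:**
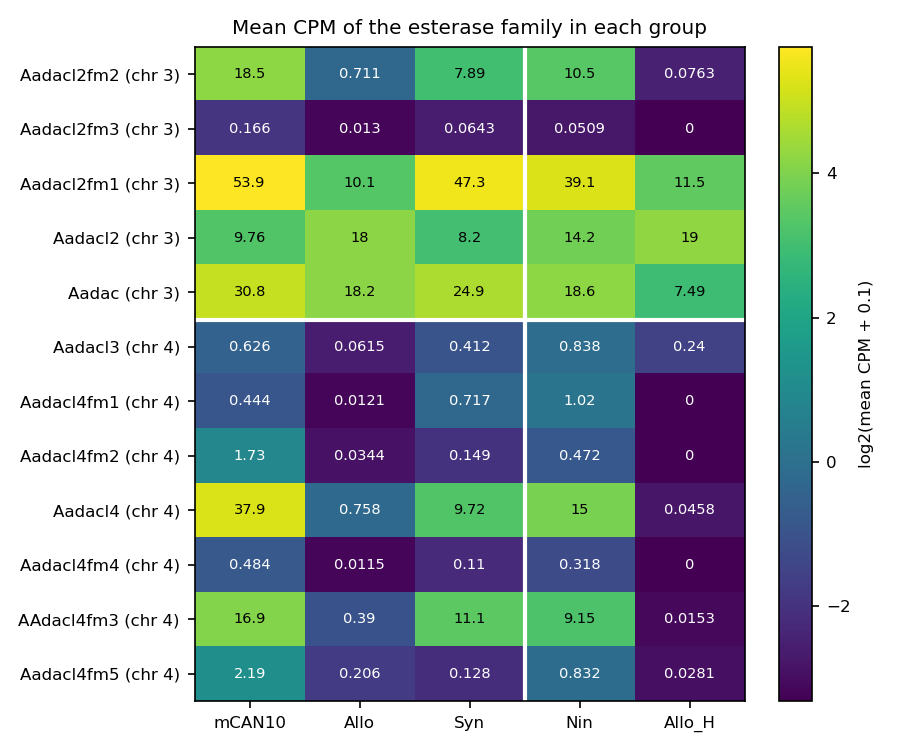
Mean CPM of the esterase family by group, printed in each cell and coloured by log2(mean CPM + 0.1), with genes in chromosome order. Rows are to be read across, since CPM is not per gene length. The Allo and Allo_H columns are the lower ones in most rows, for example 0.758 and 0.0458 CPM for Aadacl4, while Aadacl2 has its higher means there, 18 and 19 CPM.

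Akr1cl was higher in mCAN10 than in Allo skin and lower, with overlap, in Allo than in Syn skin. It had 1.85, 0.759, 0.717 and 0.824 CPM in mCAN10 libraries, 0.688, 0.104, 0 and 0 CPM in Allo libraries, and 1.44, 0.686, 2.15 and 1.54 CPM in Syn libraries. The mCAN10 libraries lay above Allo, while Allo library 1 reached just past the lowest Syn library. As log2 fold changes these were 2.29 ± 1.02 for mCAN10 over Allo, -2.77 ± 1.02 for Allo over Syn and -0.48 ± 0.89 for mCAN10 over Syn. Without Allo library 1 the ratio for mCAN10 over Allo was 29.3 (counting interval 7.9 to 245), against 4.79 with it (2.85 to 8.53), and Allo was 40.6-fold lower than Syn (11 to 339), against 6.64-fold (4.01 to 11.7).

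Under nintedanib Akr1cl varied widely, with 4.57, 0.159, 1.52, 0.48 and 0.85 CPM in Nin libraries and 0 in all 4 Allo_H libraries. Nin skin was at least 35.2-fold higher, counted against 3 reads over the Allo_H group. Nin libraries 1 and 3, the 2 highest, are those with the growing hair markers. Without both, the mean was 0.496 CPM in Nin skin, at least 11.5-fold higher. The part of hair growth in the Akr1cl level was not tested. An annotated gene, Gm8550, lies opposite an Akr1cl exon, and the library kit does not mark strand. Reads within that overlap cannot be told apart. Of 1712 short sequence words in the longest Akr1cl transcript, 7 recurred in other genes. Gm8550 was not listed among the genes that share them.

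Akr1d1 ran opposite to Akr1cl. It had 0.0772, 0, 0 and 0 CPM in mCAN10 libraries, 5.73, 10.1, 9.96 and 6.44 CPM in Allo libraries, and 0 in all 4 Syn libraries. Allo libraries therefore stood apart from both other groups, which did not differ detectably at this depth. The 629 Allo counts against none in Syn make Allo at least 275-fold higher. The 2 mCAN10 counts make mCAN10 406-fold lower than Allo, with a counting interval of 112 to 3359. In the other run it had 0.223, 0, 0.0924, 0.0533 and 6.12 CPM in Nin libraries, against 12.6, 3.71, 8.19 and 25.9 CPM in Allo_H libraries. Nin library 5 lay within the Allo_H range, and the other 4 Nin libraries lay below it. Nin over Allo_H had a log2 fold change of -3.29 ± 1.08. Nin skin was 10.2-fold lower (8.43 to 12.6) with library 5 and 137-fold lower (66.3 to 342) without it. Nin skin was 6.56-fold lower without Allo_H library 4 and 6.3-fold lower without Nin libraries 1 and 3.

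Akr1d1 is known as a liver enzyme, so hepatocyte markers were summed. The 12 markers together held 264 to 359 CPM in mCAN10 libraries, 6.24 to 425 CPM in Allo libraries and 33.8 to 551 CPM in Syn libraries. They held 24.1 to 1043 CPM in Nin and 2.7 to 255 CPM in Allo_H libraries, with Fgg and Tat at 0 in both groups. Tat was also at 0 in mCAN10 and Syn libraries, and Apoa1 in Allo libraries. Each library had counts for 4 to 9 of the 12, so the sums rest on part of the list and may be carried by few genes. Of the 12, 3 had enough counts to be tested, and 1 of these rose in mCAN10 over Allo. The part of hepatocyte RNA in the Akr1d1 level was not tested. Markers of activated keratinocytes differed between the same groups. Their sum was 1181 to 1695 CPM in mCAN10 libraries, 4336 to 9564 CPM in Allo libraries and 843 to 1368 CPM in Syn libraries. It was 895 to 2823 CPM in Nin libraries and 2308 to 11420 CPM in Allo_H libraries. Of 11 such markers, 10 fell and 0 rose in mCAN10 against Allo skin, 10 rose and 0 fell in Allo against Syn skin, and 5 fell and 0 rose in Nin against Allo_H skin. The order of libraries within a group was the same for both in Allo_H, and differed in Allo and Nin. Allo_H libraries had sums of 9001, 2308, 3424 and 11420 CPM, beside 12.6, 3.71, 8.19 and 25.9 CPM of Akr1d1. Allo library 2 had the lowest sum of its group, 4336 CPM, and the highest Akr1d1 level, 10.1 CPM. Nin library 1 had the highest sum of its group, 2823 CPM, with 0.223 CPM of Akr1d1, while Nin library 5 had 2064 CPM with 6.12 CPM of Akr1d1. Their part in the Akr1d1 level was not tested.

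Of the other aldo-keto reductases, 10 could be tested. In mCAN10 against Allo skin 2 rose and 0 fell (median log2 fold change 0.50), in Allo against Syn skin 1 rose and 4 fell (-0.56), and in Nin against Allo_H skin 2 rose and 1 fell (-0.11). The median over all genes was 0.00 in each. The 2 that rose under both treatments were Akr1c14 and Akr1c18, a 3-alpha-hydroxysteroid and a 20-alpha-hydroxysteroid dehydrogenase. Akr1c14 had 5.86, 10.3, 15.6 and 19.4 CPM in mCAN10 libraries, 2.02, 1.87, 1.6 and 4.44 CPM in Allo libraries, and 35.5, 36.8, 18.5 and 28.7 CPM in Syn libraries. It rose by 2.37 ± 0.44 on the log2 scale in mCAN10 over Allo (adjusted p = 0.00267, edgeR) and fell by 3.60 ± 0.46 in Allo over Syn (adjusted p = 7.21e-05, edgeR). In the other run it had 19, 34.3, 16.5, 6.88 and 26.6 CPM in Nin libraries, against 2.63, 2.81, 3.14 and 2.91 CPM in Allo_H libraries. It rose by 2.85 ± 0.44 (adjusted p = 0.00147, edgeR), and passed in that run alone (adjusted p = 0.0286, edgeR).

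Akr1c18 rose by 3.24 ± 0.64 in mCAN10 over Allo (adjusted p = 0.00379, edgeR), fell by 3.99 ± 0.66 in Allo over Syn (adjusted p = 0.000426, edgeR) and rose by 2.48 ± 0.62 in Nin over Allo_H (adjusted p = 0.0183, edgeR). The last call was lost in that run alone (adjusted p = 0.118, edgeR), as was that of Akr1b8, which fell by 1.13 ± 0.30 in Nin skin (adjusted p = 0.0236, edgeR, or 0.156 in that run alone). Akr1cl shares 7 of its 1712 words of 50 bases with Akr1c18, 0.409%. Akr7a5 fell by 0.65 ± 0.17 in Allo skin (adjusted p = 0.00925, edgeR) and did not pass under either treatment. In the wider list of steroid and bile acid enzymes, 26 could be tested in the first run's comparisons. There 4 rose and 2 fell in mCAN10 against Allo skin (median 0.50), and 4 rose and 5 fell in Allo against Syn skin (median -0.22). In Nin against Allo_H skin 4 of 27 rose and 0 fell (median 0.15), of which 2, Acox2 and Hsd3b6, passed in that run alone (adjusted p = 0.0258 and 0.0316, edgeR). The oxysterol hydroxylase Cyp39a1 rose by 1.03 ± 0.18 in mCAN10 skin (adjusted p = 0.00187, edgeR), and fell by 0.92 ± 0.18 in Allo skin (adjusted p = 0.00149, edgeR). Cyp7b1 and Hsd17b7 rose by 1.87 ± 0.40 and 1.08 ± 0.27 in Allo over Syn (adjusted p = 0.00276 and 0.00798, edgeR). In mCAN10 over Allo, Acox2 rose by 3.38 ± 0.69 and Sult2b1 fell by 1.63 ± 0.36 (adjusted p = 0.00444 and 0.0077, edgeR).

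Cyp2g1 was higher in mCAN10 than in Allo skin and lower than in Syn skin. It had 5.52, 6.11, 28.0 and 65.1 CPM in mCAN10 libraries, 4.91, 0.728, 0.435 and 1.06 CPM in Allo libraries, and 96.8, 69.4, 217 and 74.8 CPM in Syn libraries. The 3 groups did not overlap, with Allo lowest and Syn highest, though mCAN10 library 1 and Allo library 1 were close. The log2 fold change was 3.85 ± 1.06 for mCAN10 over Allo, -5.98 ± 1.15 for Allo over Syn and -2.13 ± 0.95 for mCAN10 over Syn. No other of the 9 lay below all Syn libraries in mCAN10 skin, where 8.05% of all genes did. mCAN10 skin was 12.4-fold above Allo (10.5 to 14.7), 32.7-fold (23.9 to 45.9) without Allo library 1 and 6.21-fold (5.22 to 7.45) without mCAN10 library 4. Allo skin was 58.3-fold below Syn (49.6 to 69.1), and 154-fold (113 to 216) without Allo library 1. Against Syn, mCAN10 skin was 4.72-fold lower (4.51 to 4.94), and 9.39-fold (8.78 to 10) without mCAN10 library 4.

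In Nin libraries Cyp2g1 had 27.6, 6.73, 50.7, 5.28 and 124 CPM, against 0.672, 0.159, 0 and 0.342 CPM in Allo_H libraries. All Nin libraries were higher, over a wide range. Nin over Allo_H had a log2 fold change of 7.20 ± 1.31. The ratio was 149 (96.3 to 244) with all libraries, 83.1 (53.7 to 136) without Nin library 5, and 254 (134 to 556) without Allo_H library 1. Cyp2g1 shares 107 of 1847 words of 50 bases, 5.79%, with the predicted gene Gm44964, so its assignment is in part uncertain.

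Of 19 other P450 genes of families 1 to 3 that could be tested, 5 rose and 1 fell in mCAN10 against Allo skin (median log2 fold change 0.46), 1 rose and 4 fell in Allo against Syn skin (-0.20), and 3 rose and 0 fell in Nin against Allo_H skin (0.71), beside a median of 0.00 over all genes. Cyp1a1, which oxidises aryl hydrocarbons, averaged 9.44 CPM in mCAN10, 1.09 CPM in Allo and 8.11 CPM in Syn skin. It rose by 3.11 ± 0.52 in mCAN10 over Allo (adjusted p = 0.00126, edgeR) and fell by 2.89 ± 0.51 in Allo over Syn (adjusted p = 0.000742, edgeR). It rose by 5.02 ± 0.61 in Nin over Allo_H (adjusted p = 0.000419, edgeR), and passed in that run alone (adjusted p = 0.0257, edgeR). Cyp2j12 rose by 4.78 ± 0.86 in mCAN10 over Allo (adjusted p = 0.00221, edgeR) and fell by 3.92 ± 0.85 in Allo over Syn (adjusted p = 0.00304, edgeR). Of the 3 calls under nintedanib, Cyp1a1 and Cyp2j12 passed in that run alone and Cyp2j8 did not (adjusted p = 0.0557, edgeR). For Cyp2g1 itself the mCAN10 libraries stayed below Syn, while for Cyp1a1 and Cyp2j12 the 2 groups overlapped. Whether the genes differ in this was not tested.

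Serpina3j, an extracellular protease inhibitor, had 5.98, 2.4, 3.78 and 6.59 CPM in mCAN10 libraries, 2.16, 0, 0 and 0.188 CPM in Allo libraries, and 3.28, 3.05, 7.7 and 4.06 CPM in Syn libraries. Allo libraries lay below the other groups, and mCAN10 and Syn overlapped. The log2 fold change was 2.95 ± 1.08 for mCAN10 over Allo, -2.89 ± 1.08 for Allo over Syn and 0.05 ± 0.96 for mCAN10 over Syn. Without Allo library 1, mCAN10 was 84.4-fold above Allo (28.7 to 411), against 7.04-fold with it (5.25 to 9.62), and Allo was 82.5-fold below Syn (28.1 to 402), against 6.88-fold (5.13 to 9.41). In Nin libraries it had 3.34, 2.6, 2.45, 1.17 and 24.5 CPM, against 0.122, 0, 0 and 0 CPM in Allo_H libraries. Library 5 carried most of the Nin counts. With 2 counts in Allo_H skin the ratio was 229 (63.2 to 1896), and without Nin library 5 it was 84.1 (22.9 to 700).

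Of 15 other clade A serpins tested, 7 rose and 1 fell in Allo against Syn skin, with a median log2 fold change of 0.98 where the median over all genes was 0.00. In mCAN10 against Allo skin 1 rose and 1 fell (median -0.31), and in Nin against Allo_H skin 1 rose and 0 fell (median -0.32). Serpina3n, an acute-phase inhibitor, averaged 187 CPM in Allo and 52.7 CPM in Syn skin and rose by 1.83 ± 0.36 (adjusted p = 0.00163, edgeR). Serpina3f and Serpina3g rose by 2.81 ± 0.67 and 2.49 ± 0.61 in Allo skin (adjusted p = 0.00564 and 0.00666, edgeR). Serpina3b was the one that rose under both treatments. It had 36.6, 22.8, 9.99 and 17.6 CPM in mCAN10 libraries, 3.39, 2.81, 1.98 and 2.31 CPM in Allo libraries, and 3.51, 4.89, 13.9 and 8.44 CPM in Syn libraries. It rose by 3.05 ± 0.66 in mCAN10 over Allo (adjusted p = 0.00625, edgeR), while the Allo libraries lay below Syn without passing (-1.55 ± 0.63, adjusted p = 0.0855, edgeR, or 0.0227 in the first run alone). It had 5.57, 14.3, 2.96, 8.32 and 34.4 CPM in Nin libraries, against 0.549, 0.053, 0.224 and 0.171 CPM in Allo_H libraries. It rose by 5.71 ± 0.80 (adjusted p = 0.000844, edgeR), and passed in that run alone (adjusted p = 0.0378, edgeR). Serpina3j and Serpina3b share 32 words of 50 bases, and 3.13% of the words of Serpina3j recur in other genes, so reads may be split between them.

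Cpn2 was near the limit of detection in the first run and present under nintedanib. It had 0.116, 0.0949, 0.143 and 0.0458 CPM in mCAN10 libraries, 0.138, 0.572, 0 and 0.125 CPM in Allo libraries, and 0, 0, 0.0895 and 0 CPM in Syn libraries. mCAN10 and Allo overlapped, as did Allo and Syn. With 10, 16 and 2 counts over the 3 groups, the ratio of mCAN10 to Allo was 0.484 (0.196 to 1.14) and that of Allo to Syn was 10.5 (2.47 to 94). Without Allo library 2 these ratios were 1.17 (0.363 to 4.35) and 4.35 (0.713 to 45.7), so the first turned in direction without that library and the interval of the second then spanned 1.

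In Nin libraries Cpn2 had 3.29, 0.424, 1.02, 0.107 and 0.85 CPM, and it was 0 in all 4 Allo_H libraries. Nin skin was at least 26.3-fold higher. The 2 highest libraries were again 1 and 3, those with growing hair markers. Without them the Nin mean was 0.46 CPM and the bound at least 10.6-fold. Their part in the Cpn2 level was not tested.

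Cpn1, the catalytic subunit of the same enzyme, had 0.116, 0.0949, 0.0956 and 0 CPM in mCAN10 libraries, 1.97, 0.728, 0.774 and 1.31 CPM in Allo libraries, and 0.039, 0, 0.269 and 0.131 CPM in Syn libraries. Allo libraries were the highest. Cpn1 fell by 3.83 ± 0.88 in mCAN10 over Allo (adjusted p = 0.00866, edgeR) and rose by 3.39 ± 0.84 in Allo over Syn (adjusted p = 0.00739, edgeR). It had 0, 0.053, 0.185, 0.0533 and 0.227 CPM in Nin libraries, against 0.977, 0.053, 0.337 and 0.969 CPM in Allo_H libraries. These overlapped, and the difference of -2.41 ± 0.83 did not pass (adjusted p = 0.0727, edgeR). Whether the 2 subunits differ in their response was not tested.

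Around carboxypeptidase N, 19 other basic carboxypeptidases, kinin and anaphylatoxin genes could be tested. In mCAN10 against Allo skin 0 rose and 3 fell (median log2 fold change -0.03), in Allo against Syn skin 8 rose and 1 fell (0.15), and in Nin against Allo_H skin 1 rose and 1 fell (-0.24). With the first run's libraries alone, Ace, Mme and Cpq passed as higher in mCAN10 over Allo (adjusted p = 0.0118, 0.0197 and 0.0407, edgeR). Bdkrb2, Cpd, Cpm, Cpn1 and Klkb1 passed as lower in that fit. The bradykinin receptor gene Bdkrb2 fell by 1.77 ± 0.38 in mCAN10 over Allo (adjusted p = 0.00571, edgeR) and rose by 2.07 ± 0.38 in Allo over Syn (adjusted p = 0.00095, edgeR). Klkb1, which encodes plasma prekallikrein, fell by 3.32 ± 0.79 in mCAN10 over Allo (adjusted p = 0.0107, edgeR) and rose by 3.14 ± 0.78 in Allo over Syn (adjusted p = 0.00729, edgeR). The anaphylatoxin receptor gene C5ar2 rose by 4.39 ± 0.64 in Allo over Syn (adjusted p = 0.000164, edgeR). In mCAN10 skin C5ar2 averaged 1.12 CPM, against 1.15 CPM in Allo skin, and it remained above Syn by 4.36 ± 0.64 (adjusted p = 0.00255, edgeR). Of the 2 genes called under nintedanib, Mme did not pass with that run's libraries alone (adjusted p = 0.161, edgeR), and Klkb1 had no value in that fit.

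Hamp2, the second hepcidin gene, had 14.2, 6.68, 11.1 and 12.6 CPM in mCAN10 libraries. It had 0.0917, 0.208, 0.242 and 0.438 CPM in Allo libraries, and 6.17, 13.8, 37.6 and 12.3 CPM in Syn libraries. Every Allo library lay below every library of the other groups, and mCAN10 and Syn overlapped. The log2 fold change was 5.52 ± 0.69 for mCAN10 over Allo, -6.17 ± 0.70 for Allo over Syn and -0.64 ± 0.52 for mCAN10 over Syn. Its Allo libraries, unlike those of the esterases, were alike, and library 1 was the lowest. Allo was 71.8-fold lower than Syn (45.3 to 122), and 46.5-fold (29.2 to 78.8) without Syn library 3, which was the highest Syn library for 8 of the 9 genes. The ratio of mCAN10 to Syn was 0.653 (0.604 to 0.705) with that library, and its counting interval ran from 0.922 to 1.1 without it. In Nin libraries it had 0.445, 2.44, 1.2, 2.19 and 3.0 CPM, against 0, 0, 0.112 and 0.057 CPM in Allo_H libraries. All Nin libraries were higher. The 3 Allo_H counts give a ratio of 43.2 (14.5 to 211), and 96.8 (17.1 to 3844) without Allo_H library 3.

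The Hamp2 level is uncertain in part because of shared sequence. Of its 388 words of 50 bases 26.8% recur in other genes, 60 of them in Hamp, and the predicted gene Gm44662 lies opposite one of its exons. Gm44662 had 7.85 to 35.2 CPM in mCAN10, 18.1 to 21.7 CPM in Allo and 7.69 to 38.2 CPM in Syn libraries, and no counts in the second counting run. Hamp2 shares 44 of its words with Gm44662. Reads in that shared stretch cannot be told apart without strand, so the Hamp2 level is set only against its own run. Hamp, the liver hepcidin, had 1.54, 0.759, 0.526 and 0.549 CPM in mCAN10 libraries, 0 in all 4 Allo libraries, and 0.156, 0.0858, 1.07 and 0.229 CPM in Syn libraries. It was at least 22.5-fold higher in mCAN10 than in Allo skin (adjusted p = 0.0079, edgeR) and was at least 9.41-fold lower in Allo than in Syn skin (adjusted p = 0.0149, edgeR). In Nin and Allo_H skin its libraries overlapped, at 0 to 0.32 CPM and 0 to 0.183 CPM. The words shared with Hamp2 limit the Hamp levels and folds too, since reads may be split between these hepcidin genes.

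Of 30 other iron genes tested, including Hamp, 3 rose and 1 fell in mCAN10 against Allo skin (median log2 fold change -0.01), 3 rose and 4 fell in Allo against Syn skin (0.02), and 4 rose and 2 fell in Nin against Allo_H skin (0.58). The ferrireductase Steap3 rose by 1.27 ± 0.27 in mCAN10 over Allo (adjusted p = 0.00559, edgeR) and fell by 1.33 ± 0.27 in Allo over Syn (adjusted p = 0.00185, edgeR). Hmox1, which degrades haem, fell by 0.83 ± 0.18 in mCAN10 over Allo (adjusted p = 0.00581, edgeR) and rose by 0.99 ± 0.18 in Allo over Syn (adjusted p = 0.000775, edgeR). Slc40a1, which encodes ferroportin, averaged 21.6 CPM in mCAN10 and 22.5 CPM in Allo skin. It averaged 114 CPM in Nin and 25.7 CPM in Allo_H skin, a rise of 2.15 ± 0.55 (adjusted p = 0.021, edgeR). None of the 6 calls under nintedanib held with that run's libraries alone, where Slc40a1 had an adjusted p of 0.174 (edgeR).

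**Figure D4:**
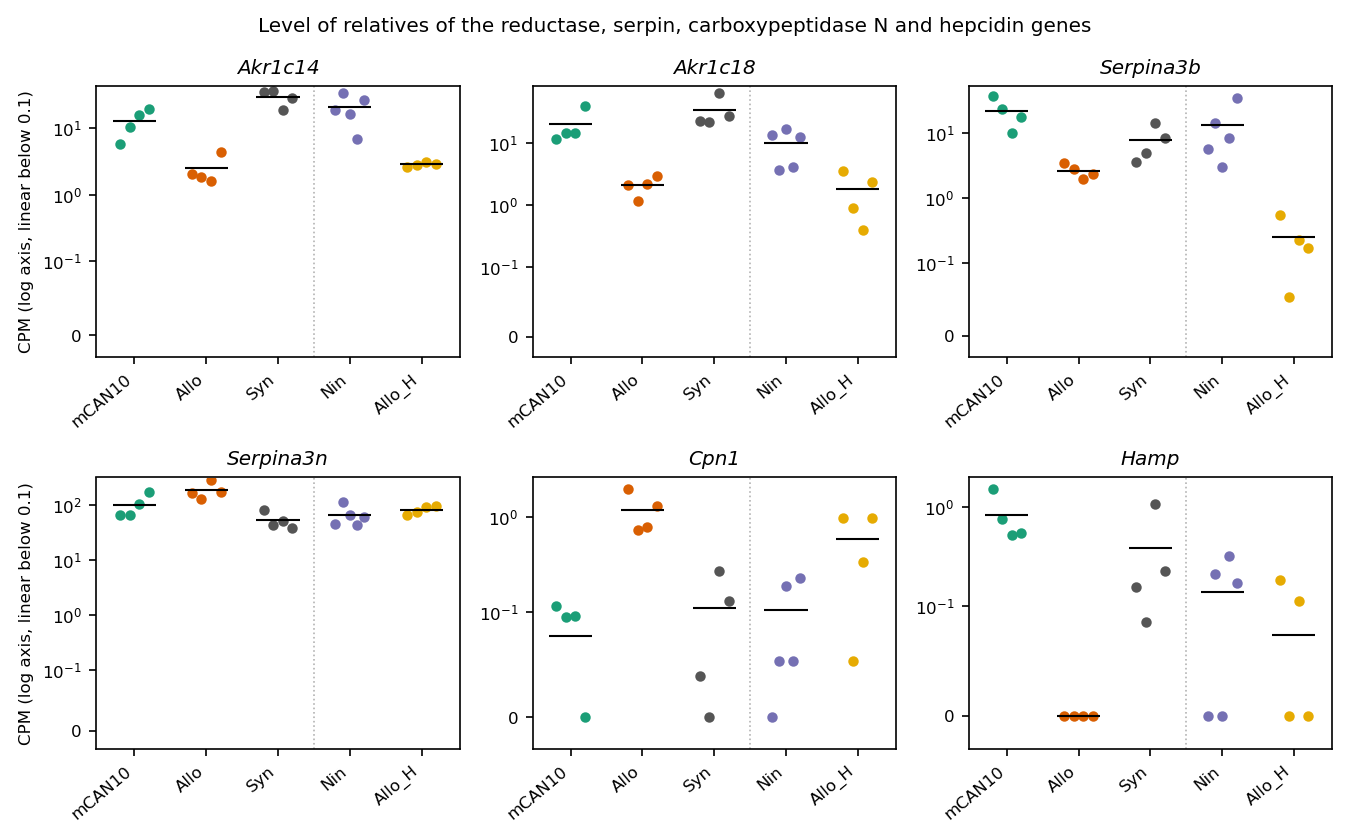
CPM of 6 relatives of the studied genes in each library, on an axis that is logarithmic above 0.1 CPM and linear below, with points for libraries and bars for group means. Akr1c14 and Akr1c18 are lower in Allo than in the other groups of their run, Serpina3n is highest on average in Allo (187 CPM), and Hamp is at 0 in all 4 Allo libraries.

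Sphkap was at 1 count in the whole Allo group. It had 0.579, 0.569, 2.39 and 1.69 CPM in mCAN10 libraries, 0.0459, 0, 0 and 0 CPM in Allo libraries, and 0.195, 0.515, 1.21 and 0.196 CPM in Syn libraries. Allo libraries lay below both others, which overlapped. The 1 Allo count gives a ratio of 93 for mCAN10 over Allo, with a counting interval of 16.4 to 3703, and makes Allo 38.1-fold lower than Syn (6.54 to 1537), or 22.5-fold (3.65 to 926) without Syn library 3. Without Allo library 1, which held that count, mCAN10 was at least 22.3-fold higher and Allo at least 9.15-fold lower than Syn. mCAN10 over Syn had a log2 fold change of 1.31 ± 0.66, or 2.44-fold (1.74 to 3.46), and was 4.14-fold (2.63 to 6.77), with no overlap, without Syn library 3. In Nin libraries Sphkap had 0.334, 0.477, 0.554, 0.586 and 0.624 CPM, against 0.427, 0, 0.112 and 0.171 CPM in Allo_H libraries. Allo_H library 1 lay within the Nin range. Nin over Allo_H had a log2 fold change of 1.54 ± 0.75, and the ratio was 3.04 (1.59 to 6.28) with all libraries and 5.6 (2.24 to 18) without Allo_H library 1.

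Among 22 other anchoring proteins, protein kinase A subunits and sphingosine kinases, 2 rose and 0 fell in mCAN10 against Allo skin (median log2 fold change 0.07), 2 rose and 4 fell in Allo against Syn skin (-0.12), and 0 rose and 2 fell in Nin against Allo_H skin (0.06). The anchoring protein Akap12 averaged 20 CPM in mCAN10, 8.06 CPM in Allo and 27.7 CPM in Syn skin. It rose by 1.31 ± 0.30 in mCAN10 over Allo (adjusted p = 0.00955, edgeR) and fell by 1.78 ± 0.31 in Allo over Syn (adjusted p = 0.000607, edgeR). Sphk2 rose by 0.61 ± 0.14 in mCAN10 over Allo (adjusted p = 0.0086, edgeR) and fell by 0.73 ± 0.14 in Allo over Syn (adjusted p = 0.00128, edgeR). Sphk1 fell by 0.90 ± 0.25 in Nin over Allo_H (adjusted p = 0.0309, edgeR), a call lost with that run's libraries alone (adjusted p = 0.129, edgeR), like that of Akap13 (adjusted p = 0.11, edgeR).

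Genes with the most similar profile were ranked by the mean absolute difference in centred log2 CPM over the 12 libraries of the first run, among 14606 or 14607 genes. For Aadacl4 they were Ces4a at 0.34, Aadacl2fm2 at 0.47 and Awat1 at 0.53, where the median gene lay at 2.64. For AAdacl4fm3 they were Aadacl2fm2 at 0.28, Pnpla5 at 0.47 and Hsd3b6 at 0.50. Over the 9 libraries of the second run, which did not enter the ranking, Aadacl2fm2 ranked 2 for both esterases. Ces4a ranked 3 and Awat1 ranked 8 for Aadacl4 there. For Hamp2 the 3 were Scd3 at 0.65, Awat2 at 0.70 and Tgm7 at 0.71, and they ranked 49, 4 and 5295 in the second run. Awat1, Awat2 and Scd3 are on the sebaceous gland list, where their enzymes make wax esters and monounsaturated fatty acids.

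For Akr1d1 the nearest were Tdh at 0.52, Atp13a4 at 0.59 and the cystatin gene Stfa1 at 0.60, with ranks of 38, 1520 and 2 in the second run. For Serpina3j they were Defb6 at 0.44, Wfdc3 at 0.52 and Krt15 at 0.54, with ranks of 18, 163 and 97. For Akr1cl they were Cers4 at 0.40, Rgs6 at 0.46 and Ccdc27 at 0.47, with ranks of 31, 2227 and 43. For Cyp2g1, at 0.87, 0.91 and 0.93, Rxfp1, Cd209f and Cartpt ranked 869, 733 and 7080. Cpn2 came nearest to Slc39a4 at 0.26, Ndst3 at 0.29 and Runx2os1 at 0.31, and Sphkap to Krt19 at 0.59, Aldh3a1 at 0.61 and P2rx2 at 0.64, all 6 with ranks of 7039 to 12663 in the second run. The median gene lay at 0.65 for Cpn2, 1.26 for Akr1cl and 1.45 for Sphkap, against 2.60 for Cyp2g1. Distances are therefore not compared between the 9 genes. Libraries of a group share their treatment, so likeness describes the group pattern first.

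Markers of several cell types differed between the same groups as the 9 genes. Of 13 sebaceous gland markers, 7 rose and 0 fell in mCAN10 against Allo skin (median log2 fold change 2.28), 0 rose and 6 fell in Allo against Syn skin (-1.72), and 9 rose and 0 fell in Nin against Allo_H skin (4.19), in the fit over all 21 libraries. Their sum without the dominant Scd1 was 1062 to 1984 CPM in mCAN10 libraries, 459 to 816 CPM in Allo libraries and 756 to 1858 CPM in Syn libraries. It was 621 to 2380 CPM in Nin and 434 to 608 CPM in Allo_H libraries. With Scd1 it was 4776 to 8941, 621 to 4939 and 3376 to 7248 CPM in the first run, and 1041 to 19714 and 569 to 3377 CPM in the second. Awat1 had 64.5, 34.5, 18 and 27 CPM in mCAN10 libraries, 6.79, 0, 0 and 0.938 CPM in Allo libraries, and 6.99, 12.3, 30.9 and 13.3 CPM in Syn libraries. Allo library 1 was the highest of its group for Awat1 as it was for 6 of the 9 genes. Awat1 was named for its likeness to Aadacl4 over the first run, so this match follows from the choice. Nin library 5 had 25 CPM of Awat1, against 9.3 to 12.8 CPM in the other Nin libraries. It was the highest of its group for 6 of the 9, Akr1d1 among them. The whole list summed highest in Allo library 2 (4939 CPM) and Nin library 2 (19714 CPM). Without Scd1 the highest were Allo library 1 (816 CPM, with 814 CPM in library 4) and Nin library 5 (2380 CPM).

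Dermal fibroblast and Schwann cell markers also rose in mCAN10 skin and fell in Allo skin. Of 11 fibroblast markers, 6 rose and 0 fell in mCAN10 against Allo skin, 0 rose and 6 fell in Allo against Syn skin, and 2 rose and 0 fell in Nin against Allo_H skin. Their sum was 4231 to 10877 CPM in mCAN10 libraries, 937 to 5072 CPM in Allo libraries and 5475 to 7160 CPM in Syn libraries, and it was 3983 to 10724 CPM in Nin libraries and 2022 to 4559 CPM in Allo_H libraries. Of 8 Schwann cell markers, 5 rose and 0 fell in mCAN10 against Allo skin, 0 rose and 5 fell in Allo against Syn skin, and 0 passed the test in Nin against Allo_H skin. Their sum was 849 to 1255 CPM in mCAN10 libraries, 311 to 418 CPM in Allo libraries and 645 to 1576 CPM in Syn libraries, and it was 147 to 493 CPM in Nin libraries and 334 to 537 CPM in Allo_H libraries. Of 10 adipocyte markers, 1 rose in mCAN10 against Allo skin and 2 fell in Allo against Syn skin, and of 8 endothelial markers 2 fell in Allo against Syn skin. Neutrophil markers went the other way, with 4 of 6 falling in mCAN10 against Allo skin, 5 rising in Allo against Syn skin and 2 falling in Nin against Allo_H skin. In Allo against Syn skin 8 of 10 T cell and 6 of 9 macrophage markers rose, and none of either fell or rose in mCAN10 against Allo skin by edgeR's test. The part of any of these cell types in the levels of the 9 genes was not tested.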

How the data were processed

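Bulk RNA-seq of mouse skin was deposited by the authors as 1 table of raw read counts per gene symbol. Per the submitters' processing notes, FastQC, Trimmomatic, STAR and featureCounts were used with build GRCm39, with versions not given in the sources used here. Of 64050 symbols, 21830 had counts in both counting runs, 12094 in the first run only and 6185 in the second only. From the counts, edgeR's quasi-likelihood test (edgeR 4.0.16, limma 3.58.1, R 4.3.3) was fitted over all 21 libraries with TMM scaling and a minimum count of 10, which left 20462 genes, and p-values were adjusted by Benjamini-Hochberg at 0.05. Replicates are separate samples per the labels and are not stated to be separate mice, so p-values measure the spread between these samples, which may be technical. Folds of summed counts carry exact 95% counting intervals, and a group at 0 was set to 3 counts over the group. Log2 CPM used a prior count of 2. Up to 3 called genes with the lowest p per list and comparison could be named, along with the closest relatives by name and the 3 genes most alike in pattern (mean of at least 1 CPM, predicted genes left out). Aadacl2, Ace, Cpq, Cpd and Cpm were named after their values were seen. The 9 genes and the lists were chosen with earlier results of these data known. Sequences and gene positions come from GRCm38 references, older than the build of the counts. The alternatives tried were DESeq2 1.42.0, other scaling, no filter, other sets of libraries and leaving out each library. The test was checked on simulated data.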

Additional observations from a re-analysis of the deposited data

Results flagged for a closer look

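In 10 of 42 sets of libraries, 1 library lay further from the rest than Dixon's criterion allows. A chance rate of about 1 in 20 holds for values that vary continuously. Where all other libraries are at 0, a library with counts always exceeds the criterion. The 10 sets are therefore not compared with that rate. Aadacl4 had 30.3 CPM in Nin library 5, against 9.97 to 12.8 CPM in the other 4, and Akr1d1 had 6.12 CPM in the same library, against 0 to 0.223 CPM. In Allo_H library 1 Aadacl4 had 0.183 CPM, AAdacl4fm3 0.0611 CPM and Serpina3j 0.122 CPM, and each was at 0 in the other 3 Allo_H libraries. In Allo library 1 AAdacl4fm3 had 1.56 CPM and Sphkap 0.0459 CPM, with 0 in the other 3. In mCAN10 library 1 Akr1cl had 1.85 CPM, against 0.717 to 0.824 CPM in the other 3, and Akr1d1 had 0.0772 CPM, against 0. Cpn2 had 0.0895 CPM in Syn library 3 and 0 in the other 3. Except for the Nin and Akr1cl values and AAdacl4fm3 in Allo library 1, each of these values was at most 3 reads.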

How the results depend on the processing

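Over the 9 genes, 528 alternative fold changes moved by less than the spread between replicates and 56 moved further. The sign differed from the reported one in 7 alternatives of 3 uncalled values. Cpn2 in mCAN10 over Allo was -1.01, and 0.18 without Allo library 2. Hamp2 in mCAN10 over Syn was -0.64, and 0.05 without Syn library 3. Serpina3j in mCAN10 over Syn was 0.05, and -0.07 to -0.20 in 5 alternatives, among them the replicate block at -0.16. For counts over the lists, 158 stayed within 1.5 times the reported count and 66 did not. The nintedanib count was 1906 genes over all 21 libraries, 94 with its own counting run (which is also the 2 groups alone, with 16230 genes tested where 20462 were), 1190 with no filter on low counts and 3058 with DESeq2. With the libraries noted as run on 2 lanes alone it was 0 (edgeR, 1450 genes at an unadjusted p under 0.05), and with those without a lane note 0 (edgeR, 860 genes), each with fewer libraries. It was 1577 without Nin libraries 1 and 5 together, a choice made after seeing the data. For mCAN10 against Allo the count was 2204, and 3664 in its own counting run. For mCAN10 against Syn it was 166, and 2131 with the 2 groups alone, 505 in the counting run, 106 with symbols counted in both runs and 672 with DESeq2. The cause of these differences was not tested. Leaving out 1 library gave 3580 to 4953 genes for Allo against Syn (4621 with all), 1284 to 2168 for mCAN10 against Allo, 782 to 2794 for Nin against Allo_H and 31 to 152 for mCAN10 against Syn. The lowest of these came without Syn library 4, mCAN10 library 4, Allo_H library 4 and Syn library 4, in that order. Same-numbered libraries deviated from their group means with correlations of -0.23 to 0.35. Libraries of different numbers were not compared, so whether the numbers pair the samples was not tested. In the mCAN10 group the replicate numbers of the titles differ from those in the deposited counts, and the titles were followed. With the replicate number as a block, within each counting run, the counts were 5861 for Allo against Syn, 2877 for mCAN10 against Allo, 731 for mCAN10 against Syn and 33 for Nin against Allo_H. Depth limits the genes with 1 to 3 reads in a group, whose ratios carry wide counting intervals.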
